A study of Homo sapiens with 6 samples.

Results

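Nuclear receptors are transcription factors that bind DNA and, in many cases, a small lipophilic ligand, and coregulators are the proteins that receptors recruit to raise or lower transcription of their targets. A list of 46 human genes of this kind was looked up by symbol in the AN3CA expression table. It held 39 receptors and 7 coregulators, and 39 of the 46 genes were listed in the table (33 receptors and 6 coregulators). The symbols *ESRRG*, *PPARG*, *RORB*, *NR5A2*, *NR0B1*, *HNF4G* and *PPARGC1A* found no row and were not analysed here. Of the 39 listed genes, 28 reached 0.5 TPM (the deposited unit, a read count scaled by gene length and library total) in at least 3 libraries and were tested, and 11 stayed under 0.5 TPM in every library. The whole table listed 17471 genes, of which 13163 were tested.

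AN3CA is an established human endometrial cancer line that expresses *PAX2*, a transcription factor of the Müllerian epithelium. The study compared 3 libraries of AN3CA cells carrying the empty vector (shEV) with 3 libraries of AN3CA cells carrying a *PAX2* hairpin (shPAX2). All 6 libraries came from cells transduced with lentivirus, selected with puromycin and grown in MEM with 10% serum, so the selection and the medium were shared by both groups. The labels call the groups WT and PAX2 KD, the knockdown used a single hairpin sequence, and no label says that the 3 libraries of a group came from separate cultures. The p-values below therefore measure the spread between these libraries, which may be technical.

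The hairpin target was checked first. *PAX2* stood at 4.03, 3.66 and 2.74 TPM in shEV and at 0.916, 0.723 and 1.17 TPM in shPAX2. The groups did not overlap, and the log2 fold change (shPAX2 minus shEV, here and below on log2(TPM + 0.5)) was -1.47 with a standard error (SE) of 0.18 and an adjusted p of 0.000294 by limma with Benjamini-Hochberg adjustment over all genes tested, which is the test behind every adjusted p below. Library totals, recovered as whole reads from the TPM values, ran from 10778743 to 18302976 in shEV and from 19506926 to 29536918 in shPAX2, so that the depths of the groups did not overlap. The labels describe the cells as epithelial, but 6 of the 7 epithelial markers examined were under 0.5 TPM in all libraries. *KRT18* alone was present at 10.2 to 17.5 TPM, while *VIM*, a mesenchymal marker, stood at 3750 to 4410 TPM. Of the 4 mesenchymal markers examined, *ZEB1* was also present, at 79.4 to 94.1 TPM. *CDH2* reached no more than 0.0777 TPM, and *FN1* ran from 0.131 to 0.827 TPM and was not tested. All 3 listed fibroblast markers of 5 examined were above 0.5 TPM, and their summed level was 811 to 858 TPM in shEV and 361 to 440 TPM in shPAX2. The sum was carried by *COL1A2* (809 to 855 TPM in shEV and 360 to 439 TPM in shPAX2). The 4 listed immune markers of 5 summed to 1.07 to 2.16 TPM in shEV and 1.94 to 2.54 TPM in shPAX2, with *PTPRC* at no more than 0.0138 TPM. Most of this sum was *CD68*, at 0.835 to 1.52 TPM in shEV and 1.58 to 2.28 TPM in shPAX2. *CD68* was called higher (log2 fold change 0.59, adjusted p = 0.0359 by the same test). What these differences contributed to the receptor results was not tested. In bulk RNA, fewer cells of a type and less RNA per cell cannot be told apart.

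Receptors of this superfamily fall into a few working groups. Steroid receptors act mostly as homodimers once a hormone binds. The retinoid X receptors (RXR) pair with the retinoic acid, thyroid hormone, vitamin D, fatty acid and oxysterol receptors on direct repeats of a short core sequence. NR1D and ROR receptors compete for the same sites in the circadian clock, and many orphan receptors act without a known ligand. In endometrium the estrogen and progesterone receptors are the best known members, and retinoic acid signalling takes part in decidualization. Coactivators of the NCOA family bring acetyltransferases to an active receptor, whereas NCOR1 brings histone deacetylases to a silent one.

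*RARB* is a retinoic acid receptor gene that is itself a target of retinoic acid receptors, through a direct repeat in its promoter. The sequence is shown because *RARB* moved against its 2 close relatives in these data. A direct repeat of the core GTTCA, with 6 bases between the copies (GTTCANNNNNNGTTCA, searched on both strands), was looked for in RefSeq promoter windows of 300 bases, 250 before and 50 after each start (build GRCh38.p14). The motif was present in 20 of 35116 windows (0.057%). Among the listed members, 35 had a promoter window (77 windows in all), and 1 window held the motif. It was a window of *RARB*, which has 4 windows. Only this core and gap were searched, and they are those of the *RARB* site printed below. The match in *RARB* therefore follows from the choice of pattern. It does not set *RARB* apart from members with receptor sites of another form, which were not searched. The site with its flanking bases was read from the GRCh37 genome (named hg19 in the submitters' processing notes) at chr3:25469695-25469724 on the plus strand. The first core begins 52 bases before the start given by RefSeq. The 2 cores are in capitals. The next base is C in both copies. The site therefore also reads as a repeat of GTTCAC with 1 base less between the copies.
RARB: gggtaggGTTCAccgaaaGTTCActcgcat
Of 23 annotated *RARB* transcripts, 3 hold all the printed bases in an exon. Another 8 span them with the bases in an intron or only partly in an exon, and 12 do not span all of them. A match of letters is a description and says nothing of binding in these cells.

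The receptors present in AN3CA cells covered a wide range of levels, and the same receptor led in both groups. *NR2F6*, an orphan receptor of the COUP family, had the highest TPM of all members, with 79.8, 86.4 and 78.6 in shEV and 81.5, 95.5 and 89.9 in shPAX2. The next in shEV was *NR2F1* (mean 52.5 TPM), above *RARG* (45.9 TPM) and the corepressor *NCOR1* (44.9 TPM), the last 2 overlapping in their range. In shPAX2, *RARG* (37.9 TPM), *NCOR1* (36.1 TPM) and *NR2F1* (34.8 TPM) followed *NR2F6*, with overlap between *RARG* and *NCOR1* and between *NCOR1* and *NR2F1*. *ESRRA*, the estrogen-related receptor of mitochondrial gene programs, came next in both groups at 35.1 and 29.0 TPM. Its range overlapped that of the gene after it, *NCOA3* in shEV and *NR1H2* in shPAX2. The read-to-TPM conversion implied a length of 17588 bases for *RXRB*, 6.10 times its longest annotated transcript, and of 1902 bases for *NR6A1*, 0.269 times its longest. No order of level was therefore read for these 2 genes, and the level enters their fitted change through the pseudocount, from 0.40 at 0.1 to 0.33 at 1 on the log2 scale for *RXRB* and from 0.59 to 0.47 for *NR6A1*. Both remain in the sums and, for *RXRB*, in the ratios given below.

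**Figure D1:**
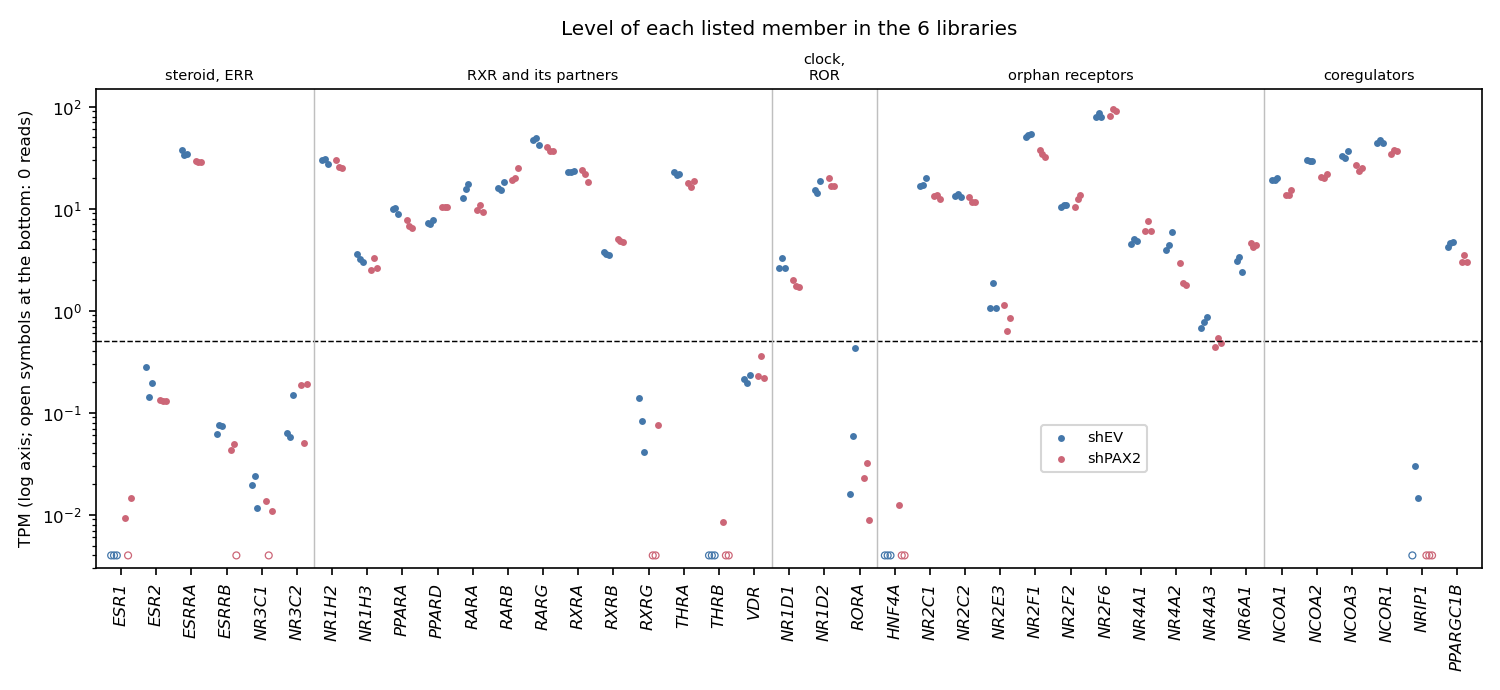
TPM (log axis) of the 39 listed members in each of the 6 libraries, ordered by role, with blue points for the 3 shEV and red points for the 3 shPAX2 libraries. The dashed line is the 0.5 TPM filter and open circles at the bottom are libraries with 0 reads. *NR2F6* sits highest in both groups, and 11 members lie under the line in every library. Among them are all the listed steroid receptors (*ESR1*, *ESR2*, *NR3C1* and *NR3C2*).

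The receptors for estrogen, glucocorticoid, mineralocorticoid and vitamin D were silent in both groups, where silent means under 0.5 TPM in every library. Of the 11 genes that met this rule 10 were receptors and the other was *NRIP1*, a corepressor of ligand-bound receptors. In 7 of the 11 no library had more than 3 reads. *ESR1*, the main estrogen receptor of the endometrium, was at 0 reads in the 3 shEV libraries, while the shPAX2 libraries held 1, 0 and 1. In the shallowest library 3 reads of *ESR1* correspond to 0.0802 TPM, the level below which a count of 0 cannot tell presence from absence. *NR3C1*, the glucocorticoid receptor, showed 1, 2 and 1 reads with the empty vector against 2, 0 and 1 with the hairpin, with 3 reads worth 0.0591 TPM in the shallowest library. *THRB* and *HNF4A* each had 1 read in a single shPAX2 library and 0 in the other five. *ESRRB*, *RXRG* and *NRIP1* had no more than 2 reads in any library.

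The other 4 silent genes had reads above this floor. *ESR2*, the second estrogen receptor, showed 6, 5 and 7 reads with the empty vector against 8, 7 and 5 with the hairpin, at most 0.282 TPM. *NR3C2*, the mineralocorticoid receptor, showed 2, 3 and 8 reads against 17, 4 and 11, at most 0.191 TPM. *VDR*, the vitamin D receptor, reached 25 reads and 0.359 TPM. *RORA*, which activates clock genes, showed 1, 6 and 45 reads against 4, 5 and 1, and its 45 reads came from shEV replicate 3 (0.432 TPM). None of these genes was tested. The groups overlapped in TPM for *NR3C2*, *VDR* and *RORA*, and not for *ESR2* (0.143 to 0.282 in shEV and 0.129 to 0.132 in shPAX2), whose read counts overlapped. These floors cover counting error only.

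Most of the tested members differed between the groups, and the members called lower were more numerous than those called higher. Of the 28 tested members, 19 passed an adjusted p of 0.05 (67.9%), beside 42.8% of all genes tested. Higher in shPAX2 were 5 (17.9%, beside 12.2% of all genes tested), and lower were 14 (50%, beside 30.5%). No member passed the test with a change of 1 or more on the log2 scale in either direction, as 4.54% of all genes did, and *NR4A2* came closest at -0.96. The 3 values of a group did not overlap those of the other in 21 of 28 members (75%), beside 54.9% of all genes. The median log2 fold change was -0.29 over the tested members and -0.10 over all genes tested. Scaling by the median of ratios moved the median of all genes to -0.00018 and gave 6 members higher and 12 lower, and quantile normalization gave 6 higher and 9 lower. Without shPAX2 replicate 2 the members called higher numbered 2, and the 14 lower became 12. These counts describe the members and are no test of the list.

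**Figure D2:**
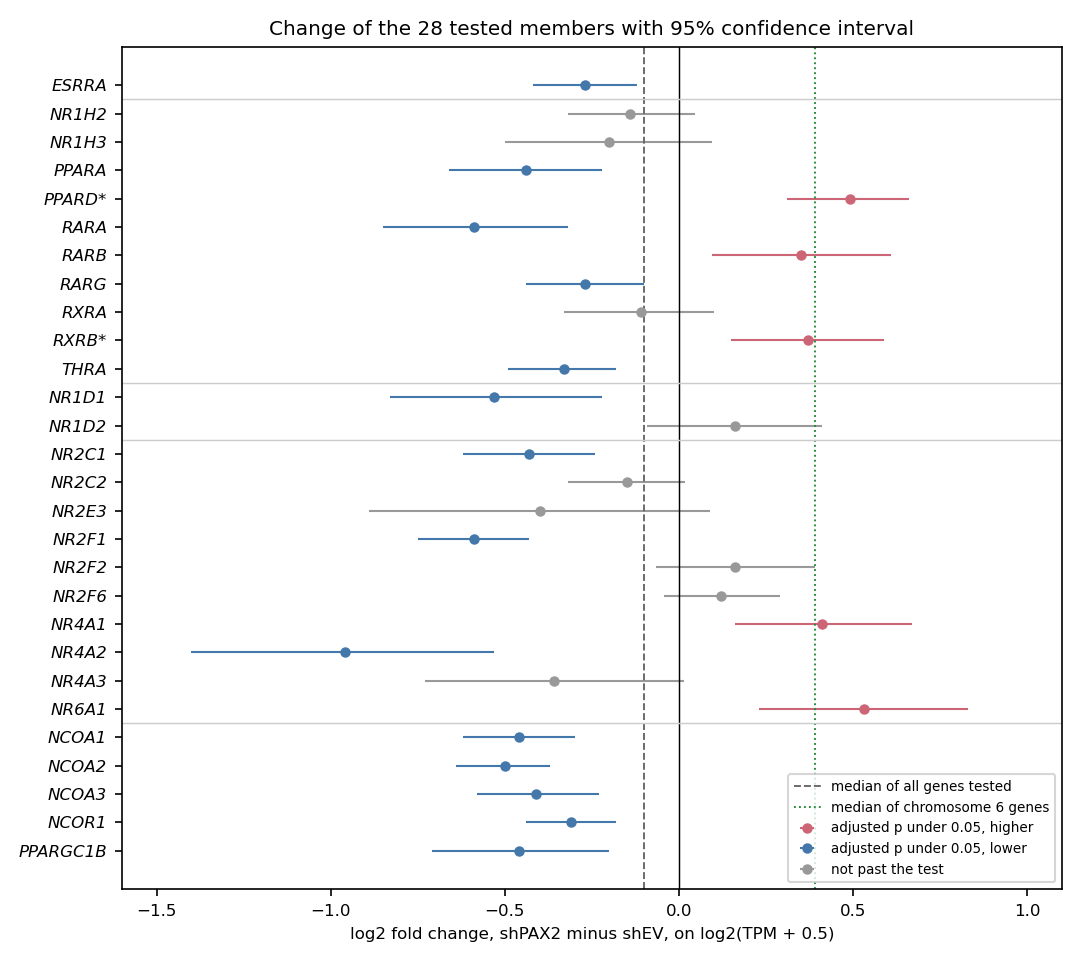
Log2 fold change (shPAX2 minus shEV, on log2(TPM + 0.5)) of the 28 tested members with limma's 95% confidence interval, ordered by role from *ESRRA* at the top to the coregulators at the bottom. Red points passed an adjusted p of 0.05 upward (5), blue points passed downward (14) and grey points did not pass (9). The dashed line is the median of all genes tested (-0.10), the dotted line the median of chromosome 6 genes (0.39), and an asterisk marks members on chromosome 6.

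The coregulators of the member list that could be tested fell together. All 5 were lower in shPAX2 (30.5% of all genes tested were). Their median log2 fold change was -0.46, against -0.10 over all genes tested. The 33 further coregulators described below did not move together, with 9 higher, 10 lower and a median of -0.0078. *NCOA2*, a p160 coactivator that docks on the ligand-bound receptor, stood at 29.7, 29.4 and 29.6 TPM in shEV and at 20.4, 20.1 and 21.7 TPM in shPAX2. Its log2 fold change was -0.50 (SE 0.06, adjusted p = 0.00025), and its shPAX2 mean was 70.1% of the shEV mean. *NCOA1*, the founding member of the same family, went from 19.3, 19.1 and 20.1 TPM to 13.5, 13.6 and 15.1 TPM (log2 fold change -0.46, SE 0.07, adjusted p = 0.00102). *NCOA3*, a relative often amplified in breast cancer, went from 32.5, 31.6 and 36.4 TPM to 26.9, 23.5 and 25.0 TPM (log2 fold change -0.41, SE 0.08, adjusted p = 0.00299). For each of the 3 coactivators every shPAX2 library lay below every shEV library. The corepressor *NCOR1* moved the same way as the coactivators, from 44.4, 46.6 and 43.9 TPM to 34.7, 37.2 and 36.4 TPM (log2 fold change -0.31, SE 0.06, adjusted p = 0.00277). *PPARGC1B*, which boosts estrogen-related receptors and PPARs, stood at 4.2, 4.6 and 4.73 TPM in shEV and 2.98, 3.52 and 2.98 TPM in shPAX2, without overlap (log2 fold change -0.46, adjusted p = 0.0108). Quantile normalization ended the call of *PPARGC1B* (adjusted p = 0.184).

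The ratios among the 3 p160 coactivators differed little between the groups. *NCOA2* to *NCOA1* was 1.54, 1.54 and 1.48 in shEV and 1.52, 1.47 and 1.43 in shPAX2, a mean difference of the log2 ratio of -0.044. *NCOA3* to *NCOA1* overlapped as well (difference 0.051), as did *NCOA3* to *NCOA2* (0.095). The summed level of the 3 genes was 82.6 ± 3.10 TPM (SD, n = 3) in shEV and 59.9 ± 2.45 TPM (SD, n = 3) in shPAX2, without overlap. For the sum, a two-sided exact permutation test returned p = 0.1, which is the smallest p that 3 against 3 libraries can give, so that no single ratio or sum in these data can pass 0.05 by that test.

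The retinoic acid receptors divided. *RARA* fell, from 12.6, 15.7 and 17.3 TPM in shEV to 9.62, 10.8 and 9.28 TPM in shPAX2 (log2 fold change -0.59, SE 0.12, adjusted p = 0.00376). *RARG*, the most abundant of the 3, was at 47.0, 49.0 and 41.7 TPM in shEV and 40.3, 36.5 and 36.9 TPM in shPAX2 (log2 fold change -0.27, SE 0.07, adjusted p = 0.0174). *RARB*, whose promoter site is printed above, rose from 15.8, 15.4 and 18.3 TPM to 19.0, 19.8 and 25.1 TPM (log2 fold change 0.35, SE 0.11, adjusted p = 0.0336). None of the 3 overlapped between groups. The calls of *RARB* and *RARG* were the least firm of these. Leaving out shEV replicate 1, shEV replicate 2, shPAX2 replicate 2 or shPAX2 replicate 3 ended each of them, with adjusted p-values from 0.0526 to 0.115 for *RARB* and from 0.0525 to 0.0718 for *RARG*, and the highest *RARB* value came from shPAX2 replicate 3. The *RARG* call was also lost with median-of-ratios scaling (adjusted p = 0.127) and quantile normalization (adjusted p = 0.068), and the *RARB* call without the filter on low values (adjusted p = 0.0669) and without trend and robust moderation (adjusted p = 0.064).

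The balance of *RARB* to *RARA* within each library differed without overlap. The TPM ratio of *RARB* to *RARA* was 1.25, 0.98 and 1.06 in shEV and 1.98, 1.83 and 2.71 in shPAX2. *RARB* made up 19.2% to 23.6% of the summed RAR level in shEV and 27.6% to 35.3% in shPAX2. The ratio of *RARG* to *RARA* overlapped, at 3.72, 3.13 and 2.41 in shEV and 4.19, 3.37 and 3.97 in shPAX2. The summed level of the 3 genes was 77.6 ± 2.32 TPM (SD, n = 3) in shEV and 69.1 ± 2.13 TPM (SD, n = 3) in shPAX2, and the groups did not overlap.

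Among the RXR receptors, the obligate partners of the receptors above, only *RXRB* passed the test. It stood at 3.8, 3.57 and 3.53 TPM in shEV and 5.03, 4.83 and 4.67 TPM in shPAX2 (log2 fold change 0.37, SE 0.10, adjusted p = 0.0148), and the call was lost without shPAX2 replicate 2 (adjusted p = 0.0586). *RXRA* had a log2 fold change of -0.11 (95% confidence interval -0.33 to 0.10, adjusted p = 0.363), and its 3 shPAX2 values (24.2, 21.9 and 18.4 TPM) spanned the shEV values (23.1, 22.8 and 23.5 TPM). *RXRG* was silent.

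The fatty acid receptors exchanged rank. *PPARD*, a broadly expressed activator of fatty acid oxidation genes, was at 7.18, 7 and 7.67 TPM in shEV and at 10.4, 10.3 and 10.5 TPM in shPAX2 (log2 fold change 0.49, SE 0.08, adjusted p = 0.00117). *PPARA*, best known as the fasting receptor of liver, was at 10.0, 10.2 and 8.90 TPM in shEV and at 7.80, 6.84 and 6.46 TPM in shPAX2 (log2 fold change -0.44, SE 0.10, adjusted p = 0.00647). The *PPARA* call was lost with quantile normalization (adjusted p = 0.088). The ratio of *PPARD* to *PPARA* was 0.718, 0.689 and 0.862 in shEV and 1.34, 1.51 and 1.62 in shPAX2, below 1 in every shEV library and above 1 in every shPAX2 library. Their summed level overlapped between groups, at 17.0 ± 0.350 TPM (SD, n = 3) in shEV and 17.4 ± 0.713 TPM (SD, n = 3) in shPAX2.

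*PPARD* (chr6:35310335-35395968 in GRCh37) and *RXRB* (chr6:33161365-33168442) both lie on chromosome 6, whose genes as a whole stood higher in shPAX2. The median log2 fold change of 629 tested genes on chromosome 6 was 0.39, against -0.11 over 11980 genes on the other chromosomes. *RXRB* lay 0.022 below the chromosome 6 median on the log2 scale (-0.022, percentile 47.9 among its genes) and *PPARD* lay 0.094 above it (percentile 62.8). The part of the chromosome in these 2 changes was not tested. The other 3 members called higher (*RARB*, *NR4A1* and *NR6A1*) are on chromosomes 3, 12 and 9.

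*THRA*, the thyroid hormone receptor present in these cells, stood at 23.1, 21.6 and 22.1 TPM in shEV and 17.8, 16.4 and 18.5 TPM in shPAX2 (log2 fold change -0.33, SE 0.07, adjusted p = 0.0044). Exons of *THRA* and *NR1D1* overlap on opposite strands by 263 bases. The kit keeps strand, but the strand setting of the counting is not given in the sources used here, so reads of the shared bases may be counted for either gene. Other called members share exon bases with a gene on the opposite strand in the same way, *ESRRA* with *TRMT112* (284 bases), *RXRB* with *SLC39A7* (361), *NCOA3* with *SULF2* (247) and *NCOR1* with *PIGL* (321) and *TTC19* (340). The oxysterol receptors *NR1H2* and *NR1H3* did not pass the test, with log2 fold changes of -0.14 (95% confidence interval -0.32 to 0.046) and -0.20 (95% confidence interval -0.50 to 0.096). *NR1H2* overlaps *NAPSA* on the opposite strand, by 1182 bases of exon.

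Of the clock receptors, *NR1D1*, a repressor of *ARNTL*, fell from 2.62, 3.26 and 2.63 TPM to 2, 1.74 and 1.70 TPM (log2 fold change -0.53, SE 0.13, adjusted p = 0.0129), without overlap. Its call was lost without shEV replicate 2 (adjusted p = 0.0534), without shPAX2 replicate 2 (adjusted p = 0.054) and with quantile normalization (adjusted p = 0.151). *NR1D2*, its paralog, was the more abundant and overlapped between groups, at 15.1, 14.3 and 18.5 TPM in shEV and 20, 16.7 and 16.8 TPM in shPAX2 (log2 fold change 0.16, 95% confidence interval -0.092 to 0.41). The ratio of *NR1D2* to *NR1D1* was 5.77, 4.37 and 7.03 in shEV and 9.98, 9.59 and 9.87 in shPAX2, and did not overlap. *ESRRA*, the only tested member of the steroid and estrogen-related group, was at 38.0, 33.3 and 34.0 TPM in shEV and 29.5, 28.8 and 28.7 TPM in shPAX2 (log2 fold change -0.27, SE 0.07, adjusted p = 0.0107). Median-of-ratios scaling (adjusted p = 0.0695) and quantile normalization (adjusted p = 0.0502) ended the *ESRRA* call.

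Of 10 tested orphan receptors, 2 were called higher and 3 lower, beside 12.2% and 30.5% of all genes tested. *NR4A2*, an immediate early receptor that needs no ligand (chr2:157180949-157198860 in GRCh37), stood at 3.96, 4.39 and 5.93 TPM in shEV and 2.94, 1.89 and 1.80 TPM in shPAX2 (log2 fold change -0.96, SE 0.19, adjusted p = 0.00414). Its shPAX2 mean was 46.5% of its shEV mean. *NR4A1*, of the same family, moved the other way, from 4.55, 5.02 and 4.80 TPM to 6.07, 7.63 and 6.03 TPM (log2 fold change 0.41, SE 0.11, adjusted p = 0.0165), and its call was lost without shPAX2 replicate 2 (adjusted p = 0.0776). *NR4A3* stood at 0.679, 0.771 and 0.860 TPM in shEV and 0.445, 0.541 and 0.487 TPM in shPAX2, which did not overlap but did not pass the test (adjusted p = 0.11). It was called by voom on recovered reads (adjusted p = 0.0264), without the filter on low values (adjusted p = 0.0362) and without trend and robust moderation (adjusted p = 0.0121). The TPM ratio of *NR4A2* to *NR4A1* was 0.870, 0.874 and 1.23 in shEV and 0.485, 0.248 and 0.298 in shPAX2, a difference of the log2 ratio of -1.38, the largest of the 17 ratios computed within families. *NR4A1* made up 41.4% to 49.5% of the summed NR4A level in shEV and 64.2% to 75.8% in shPAX2, while the sum overlapped (10.3 ± 1.21 TPM and 9.28 ± 0.887 TPM; SD, n = 3 each).

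Of the COUP receptors, which compete with RXR pairs for direct repeats, only *NR2F1* passed the test. *NR2F1* (chr5:92918928-92930317 in GRCh37) fell from 50.0, 53.3 and 54.3 TPM to 37.9, 34.3 and 32.2 TPM (log2 fold change -0.59, SE 0.07, adjusted p = 0.000308). *NR2F2*, a regulator of endometrial stroma, was at 10.5, 10.8 and 10.8 TPM in shEV and 10.3, 12.5 and 13.6 TPM in shPAX2, overlapping (log2 fold change 0.16, 95% confidence interval -0.065 to 0.39). *NR2F6* had a log2 fold change of 0.12 (95% confidence interval -0.042 to 0.29). Both *NR2F2* (adjusted p = 0.0249 at the lowest) and *NR2F6* (adjusted p = 0.0325 at the lowest) passed upward in 2 of 15 alternatives, without shPAX2 replicate 1 for both and with another scaling. The ratio of *NR2F2* to *NR2F1* was 0.211, 0.203 and 0.198 in shEV and 0.272, 0.363 and 0.422 in shPAX2, without overlap.

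*NR2C1*, a testicular receptor, stood at 16.7, 17.2 and 20 TPM in shEV and 13.4, 13.6 and 12.5 TPM in shPAX2 (log2 fold change -0.43, SE 0.08, adjusted p = 0.00321). Its paralog *NR2C2* did not overlap between groups but did not pass (log2 fold change -0.15, adjusted p = 0.128), and it shares 6440 bases of exon with *MRPS25* on the opposite strand. *NR6A1*, the germ cell nuclear factor that represses pluripotency genes, rose from 3.04, 3.39 and 2.39 TPM to 4.6, 4.25 and 4.42 TPM (log2 fold change 0.53, SE 0.13, adjusted p = 0.0114). *NR2E3*, known from photoreceptors, overlapped at 1.06, 1.85 and 1.07 TPM in shEV and 1.14, 0.634 and 0.840 TPM in shPAX2. Altogether 11 of the 19 called members passed in each of the 15 alternatives that kept the 0.05 threshold, among them *NR4A2*, *NR2F1*, *PPARD*, *NR6A1*, the 3 NCOA genes and *NCOR1*.

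**Figure D3:**
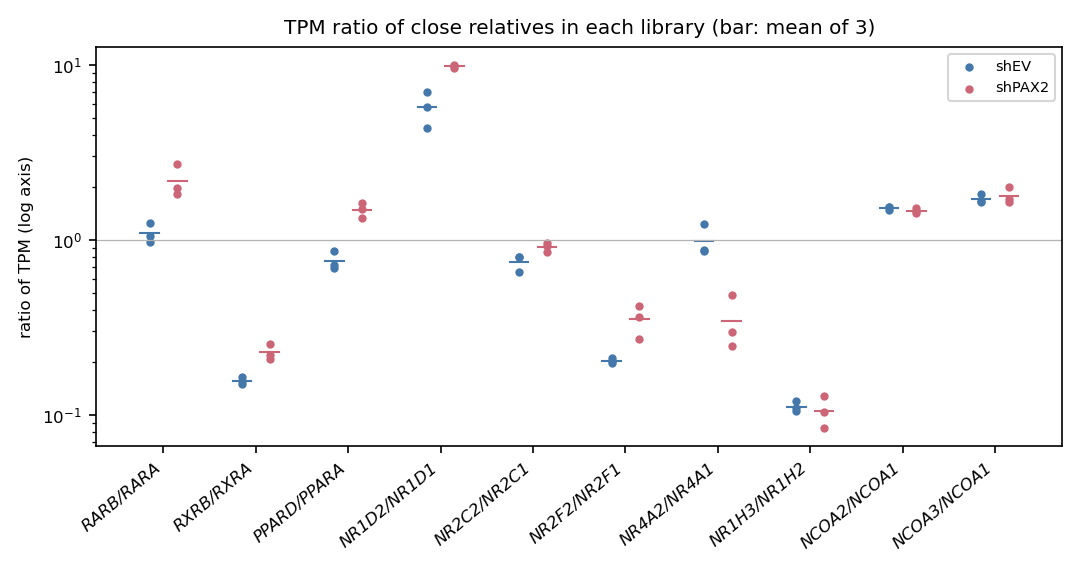
TPM ratio (log axis) of close relatives within each library, with blue points for shEV, red points for shPAX2 and a bar at the mean of 3 libraries. The *NR4A2*/*NR4A1* ratio is lower in all 3 shPAX2 libraries and *RARB*/*RARA*, *PPARD*/*PPARA* and *NR2F2*/*NR2F1* are higher in all 3, whereas the *NR1H3*/*NR1H2* and NCOA ratios overlap. The height of *RXRB*/*RXRA* rests on the implied length of *RXRB*.

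In all, 17 ratios were computed between tested members of the same family and 11 did not overlap between groups. Each of the 11 had an exact two-sided permutation p of 0.1, the smallest possible. As single genes, 54.9% of all genes tested did not overlap, and no such share was computed for ratios of other gene pairs. Ratios within a family can share a gene, so the 17 are not separate observations. The summed level of the 33 listed receptors was 422 ± 5.40 TPM (SD, n = 3) in shEV and 385 ± 5.63 TPM (SD, n = 3) in shPAX2. That of the 6 listed coregulators was 132 ± 2.36 TPM and 99.2 ± 1.81 TPM (SD, n = 3 each). Both sums were without overlap.

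The genes around the receptors were followed in lists of ligand-handling enzymes, usual targets and further coregulators. Of 123 genes, 106 were listed and 86 tested, 15 were called higher and 37 lower (the shares over all genes tested being 12.2% and 30.5%), with a median log2 fold change of -0.16. The 37 became 24 without shPAX2 replicate 2. Among receptors outside the member list, *NR5A1* had at most 4 reads in any library. No row was found for *PGR*, which was not analysed here.

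Retinoid genes were lower or did not pass. Of 16 genes, 14 were listed, 5 tested and 4 called lower (30.5% of all genes tested were). *RARRES3*, a retinoid-induced gene, went from 2.68, 1.48 and 3.47 TPM to 0.683, 0.485 and 0.134 TPM (log2 fold change -1.69, SE 0.31, adjusted p = 0.00355). *DHRS3*, which turns retinaldehyde back to retinol and is induced by retinoic acid, had a log2 fold change of -0.48 (adjusted p = 0.00207). *ALDH1A2*, which makes retinoic acid, was abundant, at 344 to 358 TPM in shEV and 299 to 317 TPM in shPAX2 (log2 fold change -0.18, adjusted p = 0.0255). The *ALDH1A2* call was lost with median-of-ratios scaling (adjusted p = 0.271), with the replicate number as a block (adjusted p = 0.0559) and without any of shEV replicates 1, 2 or 3 or shPAX2 replicate 2 (adjusted p from 0.0545 to 0.0773).

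Among 12 tested genes of steroid handling, 3 were higher and 5 lower, beside 12.2% and 30.5% of all genes tested. *HSD17B2*, which oxidises estradiol to estrone, showed 0, 0 and 1 reads with the empty vector against 27, 63 and 28 with the hairpin. Summed over libraries this was 1 read of 46517742 against 118 of 75978577, a ratio of 72.2 per library read with an exact 95% interval of 12.7 to 2880 that covers counting error only. *HSD17B1*, which works in the opposite direction, stood at 12.4, 11.3 and 12 TPM in shEV and 7.09, 8.81 and 6.75 TPM in shPAX2 (log2 fold change -0.63, SE 0.10, adjusted p = 0.00156). *STS*, the steroid sulfatase, had a log2 fold change of -0.58 (adjusted p = 0.00167). *SRD5A3* was higher (log2 fold change 0.54, adjusted p = 0.00137), as was *AKR1C2* (0.39, adjusted p = 0.00144), a ketosteroid reductase whose close paralogs can share reads with it.

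Of 10 tested usual targets of the glucocorticoid receptor, 6 were called lower and none higher, beside 30.5% and 12.2% of all genes tested. These cells had no more than 2 reads of that receptor in a library. *FKBP5* (log2 fold change 0.10, adjusted p = 0.201), *TSC22D3* (-0.20, adjusted p = 0.166), *TIPARP* (-0.20, adjusted p = 0.258) and *MT2A* (-0.65, adjusted p = 0.108) did not pass. *SGK1*, a kinase of ion transport, went from 3.43, 2.65 and 2.54 TPM to 0.626, 0.580 and 0.801 TPM (log2 fold change -1.52, SE 0.16, adjusted p = 0.000126). *ERRFI1*, an inhibitor of the EGF receptor, went from 14.4, 17.6 and 19.5 TPM to 6.60, 7.92 and 7.17 TPM (log2 fold change -1.19, SE 0.12, adjusted p = 9.13e-05). *ZBTB16* had a log2 fold change of -0.82 (adjusted p = 0.000414), *KLF9* of -0.61 (adjusted p = 0.00641) and the clock gene *PER1* of -0.48 (adjusted p = 0.00787). The *PER1* call was lost with quantile normalization (log2 fold change -0.28, adjusted p = 0.0667). *SGK1* is on chromosome 6, at percentile 0.954 of its genes. These genes also answer to other signals, and what moved them was not tested. Of 8 estrogen and progesterone targets only *FOXO1* was tested, and it did not pass (log2 fold change -0.21, adjusted p = 0.355).

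Of 5 tested oxysterol receptor targets 3 were called higher and 1 lower, beside 12.2% and 30.5% of all genes tested. *SCD*, the fatty acid desaturase, went from 579, 551 and 555 TPM to 939, 927 and 910 TPM (log2 fold change 0.72, SE 0.05, adjusted p = 1.98e-05). *SREBF1* (0.29, adjusted p = 0.00391) and *LPCAT3* (0.19, adjusted p = 0.0281) were higher and the cholesterol exporter *ABCG1* lower (-0.43, adjusted p = 0.0478). The calls of *LPCAT3* and *ABCG1* were lost on leaving out single libraries, 4 and 5 of the 6 respectively, with adjusted p-values from 0.0568 to 0.0805 and from 0.0735 to 0.16. For *LPCAT3* these were shEV replicates 2 and 3 and shPAX2 replicates 1 and 2, and for *ABCG1* all but shPAX2 replicate 1. The *ABCG1* call was also lost under the replicate block (adjusted p = 0.0709), without the filter on low values (0.0842), without trend and robust moderation (0.0643), with median-of-ratios scaling (0.114) and with quantile normalization (0.334).

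Of 9 tested targets of PPARs and estrogen-related receptors, 6 were lower and none higher, beside 30.5% and 12.2% of all genes tested. *CPT1A*, which lets long-chain fatty acids into mitochondria, went from 34.1, 33.7 and 33.0 TPM to 18.1, 19.3 and 20.7 TPM (log2 fold change -0.78, SE 0.07, adjusted p = 3.84e-05). *ANGPTL4*, an inhibitor of lipoprotein lipase, went from 9.20, 13.0 and 23.9 TPM to 4.09, 4.44 and 3.66 TPM (log2 fold change -1.69, SE 0.36, adjusted p = 0.0162), and leaving out any shPAX2 library ended its call (adjusted p from 0.0526 to 0.0706). The acyl-CoA enzymes *ACADVL* (-0.55, adjusted p = 0.000219) and *ACADM* (-0.28, adjusted p = 0.0191) were lower as well. The *ACADM* call was lost without shEV replicate 1 or 3 or shPAX2 replicate 2 or 3 (adjusted p from 0.0511 to 0.0833), with median-of-ratios scaling (adjusted p = 0.111) and with quantile normalization (adjusted p = 0.0555).

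Of 12 tested clock genes 6 were lower and none higher, beside 30.5% and 12.2% of all genes tested. The core activators *ARNTL* (log2 fold change -0.11, 95% confidence interval -0.31 to 0.084) and *CLOCK* (0.051, 95% confidence interval -0.11 to 0.21) did not pass. *BHLHE40*, a repressor of the loop, went from 20.9, 23.6 and 33.8 TPM to 15.1, 13.6 and 14.9 TPM (log2 fold change -0.79, SE 0.17, adjusted p = 0.0103). The output factors *DBP* (-0.55, adjusted p = 0.00166) and *NFIL3* (-0.52, adjusted p = 0.0235), the repressor *CIART* (-0.85, adjusted p = 0.0167) and *PER3* (-0.67, adjusted p = 0.0112) were lower too. With quantile normalization 4 of the 6 calls were lost, those of *NFIL3* (adjusted p = 0.104), *CIART* (0.0804), *PER3* (0.0514) and *PER1* (0.0667), and *NFIL3* also lost its call with median-of-ratios scaling (adjusted p = 0.0524). *NFIL3* lost its call with the replicate block (adjusted p = 0.0533) and without shEV replicate 3 or shPAX2 replicate 2 or 3 (adjusted p from 0.0703 to 0.0822), *CIART* without shPAX2 replicate 2 or 3 (adjusted p = 0.0626 and 0.056) and *PER3* without shPAX2 replicate 3 (adjusted p = 0.0512).

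The 33 further coregulators moved both ways, 9 higher and 10 lower (12.2% and 30.5% of all genes tested were), with a median log2 fold change of -0.0078. *CITED2*, which occupies the p300 and CBP acetyltransferases, rose from 22.5, 24.6 and 30.7 TPM to 174, 198 and 203 TPM (log2 fold change 2.87, SE 0.12, adjusted p = 1.87e-06). *KAT2B*, an acetyltransferase recruited with p160 coactivators, went from 9.61, 9.66 and 9.55 TPM to 5.30, 4.04 and 4.61 TPM (log2 fold change -0.98, SE 0.10, adjusted p = 0.000139). *SIN3A*, a scaffold of histone deacetylases, was lower (-0.46, adjusted p = 0.000305). *HSP90AB1*, a chaperone that holds steroid receptors ready for ligand, was at 1590, 1600 and 1630 TPM in shEV and 2590, 3200 and 3190 TPM in shPAX2 (log2 fold change 0.89, SE 0.08, adjusted p = 7.28e-05), and near-identical pseudogenes can share its reads. *NCOA7* was higher (0.54, adjusted p = 0.00141). *CITED2*, *HSP90AB1* and *NCOA7* are on chromosome 6, at percentiles 99.5, 93.5 and 68.4 of its genes.

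**Figure D4:**
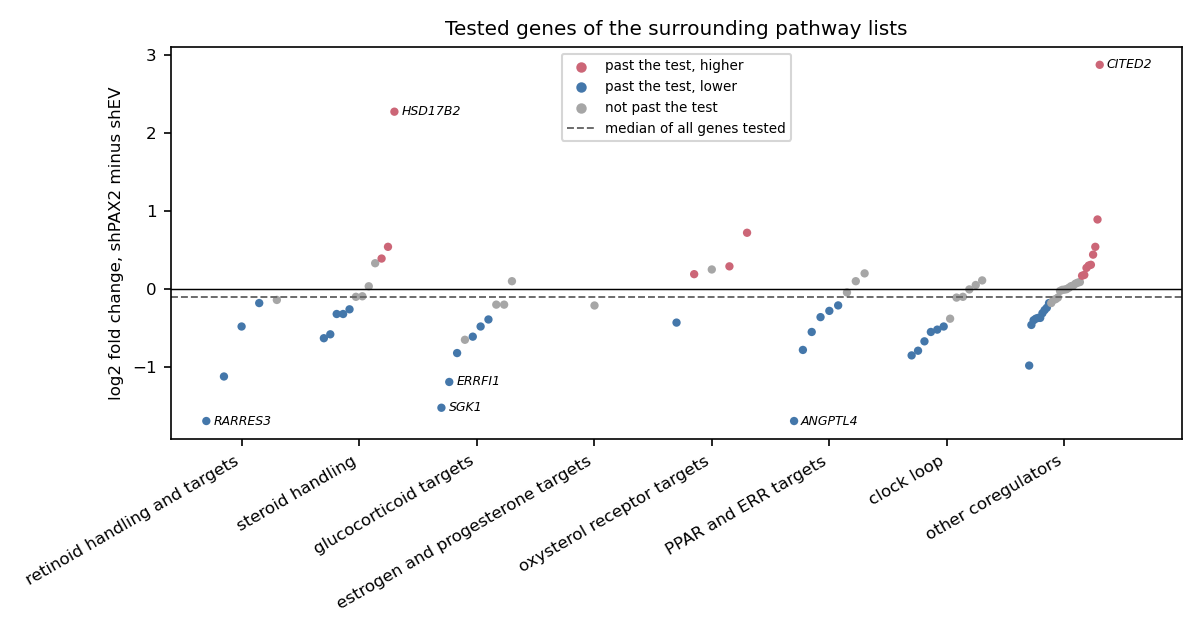
Log2 fold change (shPAX2 minus shEV) of the tested genes of 8 pathway lists, 1 point a gene, red where called higher, blue where called lower and grey where not called, with the median of all genes tested (-0.10) dashed. Some called genes that changed by 1 or more on the log2 scale are labelled, from *RARRES3* and *ANGPTL4* at -1.69 to *CITED2* at 2.87. The fitted value of *HSD17B2* depends on the pseudocount, because shEV held 1 read of it.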

How the data were processed

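RNA of 6 AN3CA libraries was sequenced with a stranded total RNA kit, and the labels assign 3 to shEV and 3 to shPAX2. The study names the AN3CA control elsewhere as a scrambled hairpin; the empty vector of the labels is used here. The authors deposited 1 table of TPM values (read counts per transcript length, scaled to a fixed library sum), and the submitters' processing notes name bcl2fastq, STAR, Subread, featureCounts, edgeR and hg19 without roles. The strand setting of the counting is not given in the sources used here. TPM divides by gene length and library total, so that a level rests on the annotated length and a rise of abundant genes lowers the rest.

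Members were matched by symbol. The members and lists were chosen with earlier results of these data known. Values were tested with limma 3.58.1 (R 4.3.3; trend and robust moderation) on log2(TPM + 0.5), for genes with at least 0.5 TPM in at least 3 libraries, with Benjamini-Hochberg adjustment over all genes tested and a call at an adjusted p under 0.05. The log2(TPM + 0.5) scale understates the change of low genes. Ratios and sums were tested with the exact permutation test (scipy 1.17.1). Named were *PAX2*, members called, changed by 0.5 or more on the log2 scale in either direction or under the filter, and up to 5 called genes of each pathway list; others were named after their values were seen. Some genes of these lists enter the counts and are not reported here by name. Whole reads were recovered from the TPM values, which were whole-number ratios between libraries in 100.0% of genes (relative deviation at most 7.15e-14). For genes of very few reads a factor common to all libraries may be lost. Recovery on simulated TPM values returned 98.8% of 16974 genes exactly. Reads set the depth and the floor of 3 reads. On simulated data of this comparison (13131 genes), 91% of changes of 1 and 98% of changes of 2 on the log2 scale were recovered. Of the calls, 7.88% were genes simulated without a change. Only 100 genes with a change of 1 and 98 with a change of 2 were simulated. In the real data 42.8% of genes were called and no called member reached a change of 1. These rates therefore do not describe the calls of members. Positions and overlaps come from GENCODE v44 lifted to GRCh37, in which 94.6% of the listed genes were found. Other pseudocounts, filters, scalings, moderation, threshold, voom on the reads, a replicate block and leaving out each library were tried.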

Additional observations from a re-analysis of the deposited data

How the results depend on the processing

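Among 446 values of single members under the alternatives, 406 kept their direction and their side of the threshold, 29 lost the call, 8 gained it and 3 changed sign. The 3 were uncalled members whose sign turned with quantile normalization: *RXRA* (0.0017), *NR1H3* (0.062) and *NR2C2* (0.037). The members called higher numbered 1 at an adjusted p of 0.01 and 2 to 7 when single libraries were left out, lowest without shPAX2 replicate 2. The members called lower numbered 9 with quantile normalization and 12 to 15 when single libraries were left out. *NR4A2* passed the fold threshold with a pseudocount of 0.1 (1 member; -1.08) and with voom (1 member; -1.10), and from 0 to 1 member did when single libraries were left out. Pathway genes called lower numbered 20 at an adjusted p of 0.01 and 24 to 36 when single libraries were left out, and those called higher 10 to 15. Median-of-ratios scaling gave 19 pathway genes higher and 25 lower and quantile normalization 18 and 25, against 15 and 37. The stricter threshold can only remove calls, and what moved the other counts was not tested.

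Same-numbered libraries of the 2 groups did not deviate together from their group means (correlations of -0.0523, 0.0815 and 0.0014). Such correlations show no shared deviation but cannot tell whether the libraries were handled in pairs. With the replicate block *PAX2* kept its log2 fold change of -1.47 (adjusted p = 0.00207), the members counted 5 higher and 14 lower, and the pathway genes 13 higher and 31 lower. Depth limits the 7 silent members with at most 3 reads, and *NR2E3* and *NR4A3* have no value at the 2 TPM filter.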
